A study of Mus musculus with 8 samples.

Results

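The ATP-binding cassette (ABC) genes and the Slco genes were described in mouse liver, on microarrays of a study of liver injury with and without the cytokines interleukin-4 and interleukin-13. Their members were all array probes whose platform gene symbol starts with Abc, a letter from a to g and a number, or with Slco and a number. This rule used no measured value. It found 96 of 25697 probes, which named 57 of 16593 genes, 46 of them ABC genes and 11 of them Slco genes. A probe counted as detected on an array where its deposited detection p-value was under 0.01, and was tested where it was detected on every array of at least 1 group. By that filter 42 member probes of 29 genes were tested (25 ABC and 4 Slco genes), among 7257 genes in all, and 28 member genes were not.

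Total RNA of whole liver from Balb/c mice aged 2 months was hybridised to 8 Illumina bead arrays. Wild-type mice and mice labelled IL-4/IL-13-/-, which lack both cytokine genes and are called knockout here, received vehicle or carbon tetrachloride (CCl4), a solvent that liver enzymes turn into a toxic radical. Each genotype had 1 vehicle array and 3 CCl4 arrays. The labels give no CCl4 dose, route or time, and nothing says whether replicates came from separate animals. The p-values thus cover no more than the variation among these arrays, part of which may be technical. Vehicle groups of 1 array have no spread of their own and were assumed to vary like the CCl4 arrays.

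Median deposited intensities ran from 60.9 to 76.9 per array, and 8899 to 9821 probes were detected per array. The targeted genes could not be checked, since the single probes of Il4 and Il13 were detected on 0 arrays. Of 8 listed hepatocyte markers 5 were tested and 0 were called in any comparison, with Apoa1 between 13.75 and 14.29 and Ttr between 13.79 and 14.13 on the normalized log2 scale on all arrays. The Alb probe read only 5.68 to 6.43, and Tat and Fgb were detected on no array. Wild-type CCl4 replicate 2 stood nearer to the vehicle arrays than the others did. Its correlations with them across genes were 0.918 and 0.923, against 0.891 to 0.899 for the other wild-type CCl4 arrays and 0.911 to 0.913 for the knockout CCl4 arrays, all over the same 7257 genes.

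ABC proteins bind and split ATP to pump lipids, bile acids, conjugated drugs and metal-binding molecules across membranes, while Slco proteins, the organic anion transporting polypeptides, let bile acids, hormones and drugs enter cells without splitting ATP. In hepatocytes the Slco carriers sit on the blood side, and the canalicular pumps Abcb11, Abcb4, Abcc2 and the Abcg5 and Abcg8 pair secrete bile acids, phospholipid, conjugates and sterols into bile. Members of the ABCE and ABCF classes have no membrane part and act on ribosomes.

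Promoter windows are shown for the gene pair that shares its start region and was lower after CCl4, for a pump that rose and for the carrier with the largest fall. They run from 250 bases before to 50 bases after the annotated start, on the mouse build GRCm38.p6 of RefSeq, and 46 of the 57 members have one. Capitals mark the matches of 1 motif per window, searched on both strands: AGATAA (the motif of GATA factors, with the complement TTATCT) for Abcg8, TGACNNNGC (the antioxidant response element core, with the complement GCNNNGTCA) for Abcc2 and GTTAAT (a partial site of the hepatocyte factor HNF1, with the complement ATTAAC) for Slco1b2. No motif overlaps another. The Abcg8 window is chr17:84682871-84683170, that of Abcc2 is chr19:43782058-43782357 and that of Slco1b2 is chr6:141629268-141629567, all on the plus strand.
Abcg8: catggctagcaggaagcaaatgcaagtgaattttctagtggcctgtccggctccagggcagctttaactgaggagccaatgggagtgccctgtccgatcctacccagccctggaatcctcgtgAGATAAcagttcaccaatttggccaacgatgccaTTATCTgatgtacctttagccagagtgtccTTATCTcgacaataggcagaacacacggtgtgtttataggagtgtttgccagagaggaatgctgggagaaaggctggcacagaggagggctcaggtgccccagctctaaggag
Abcc2: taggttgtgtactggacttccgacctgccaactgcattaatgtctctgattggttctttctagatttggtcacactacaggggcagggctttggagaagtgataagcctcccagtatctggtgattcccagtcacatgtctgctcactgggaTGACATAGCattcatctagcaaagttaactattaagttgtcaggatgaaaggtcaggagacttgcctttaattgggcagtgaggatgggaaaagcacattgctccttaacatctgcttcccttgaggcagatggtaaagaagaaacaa
Slco1b2: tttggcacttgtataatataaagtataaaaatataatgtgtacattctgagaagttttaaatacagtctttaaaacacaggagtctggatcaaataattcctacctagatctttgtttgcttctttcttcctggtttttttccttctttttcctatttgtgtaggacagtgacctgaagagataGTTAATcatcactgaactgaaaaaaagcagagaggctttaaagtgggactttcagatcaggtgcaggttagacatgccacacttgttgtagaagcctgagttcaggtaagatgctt
The Abcg8 start lies at position 251 of its window and the start of Abcg5, read on the other strand, at position 141, so the pair starts 110 bases apart. Matches to AGATAA or its complement begin at positions 124, 158 and 188, and 11.2% of all 32851 windows hold at least 1. The Abcc2 match begins 98 bases before the start, and 12.4% of all windows hold that motif. The Slco1b2 match begins 66 bases before the start, and its motif is in 7.1% of all windows. A match describes these letters and is no measurement of binding.

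After CCl4, 3 of 4 tested uptake carriers and 3 of 5 tested canalicular members were lower, as the mean of both genotypes. The largest falls were those of the bile acid and drug carrier Slco1b2 (5.07-fold), the sterol pump subunit Abcg8 (4.02-fold) and the carrier Slco1a4 (3.21-fold). The pump of conjugates Abcc2 and the prostaglandin carrier Slco2a1 rose. In all 12 tested members fell, where 18.6% of all tested genes did, and 3 rose, where 18.9% of all tested genes did (limma with Benjamini-Hochberg adjustment over 7257 genes, adjusted p under 0.05). The 15 called of 29 compare with 37.5% called among all genes. Of those that fell Abca2 and Abca9 passed the detection filter through the vehicle arrays alone, and of those that rose Abca7 passed through the CCl4 arrays alone, so the filter itself favoured their direction. The median difference over the 29 members was -0.44 on the log2 scale, against -0.02 over all genes. In whole liver, fewer cells of a type and less RNA per cell cannot be told apart.

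**Figure D1:**
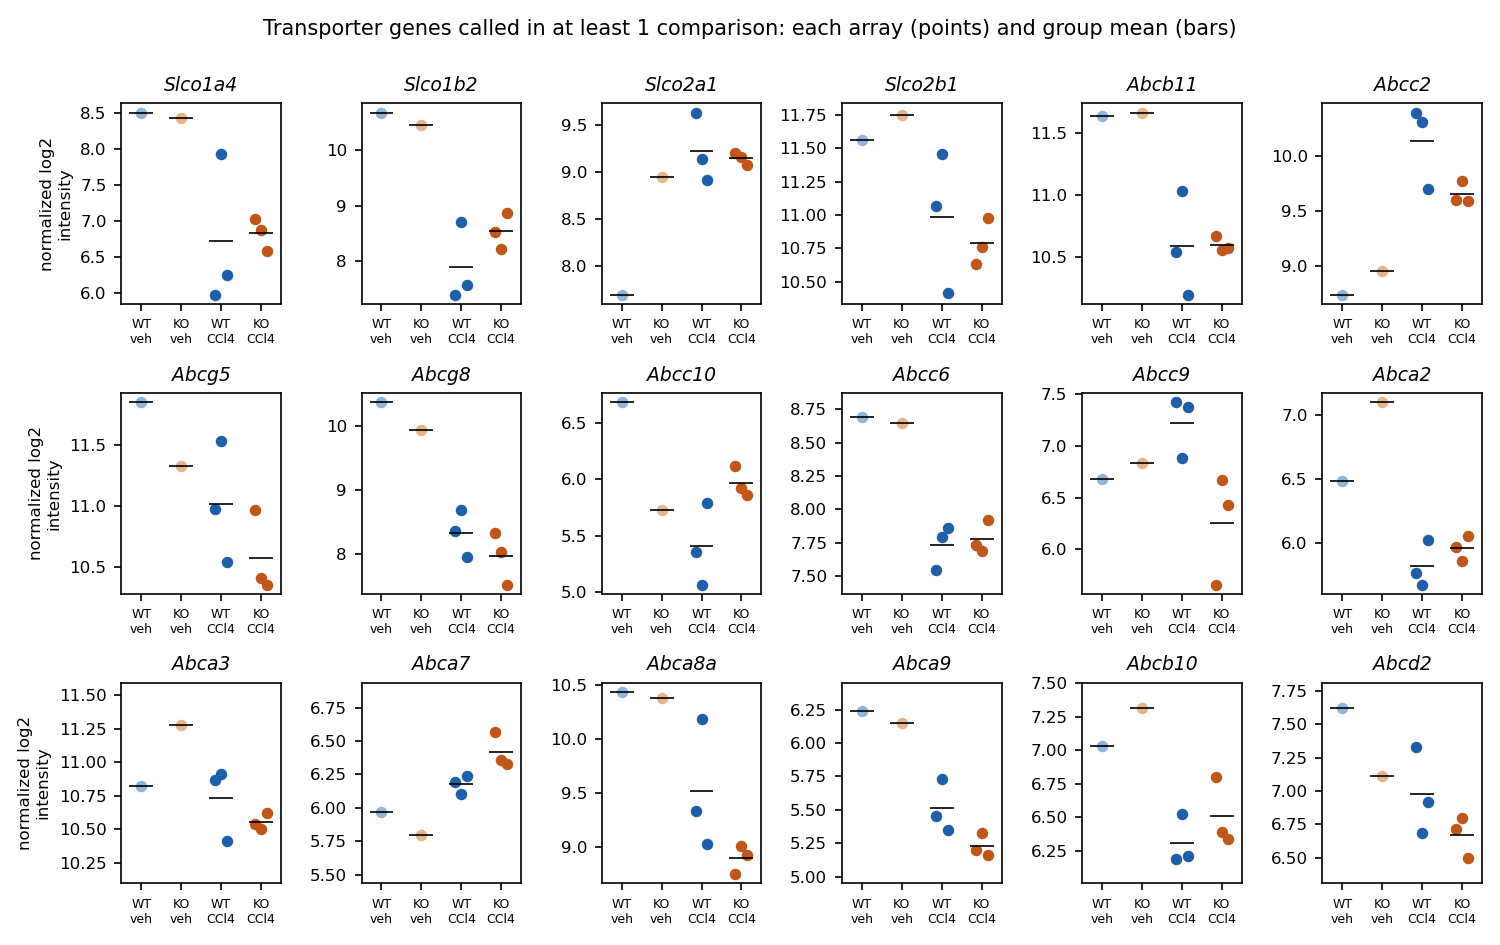
Normalized log2 intensity (vertical axis, scale set per gene) of the 18 member genes called in at least 1 comparison, with each array as a point and each group mean as a bar. Slco1b2 reads 10.45 and 10.67 on the vehicle arrays and at most 8.87 on the CCl4 arrays, while Abcc2 reads at most 8.96 on the vehicle arrays and at least 9.59 on the CCl4 arrays.

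Among the Slco carriers 4 of 11 genes were tested. As the mean of both genotypes 3 fell and 1 rose, where 18.6% and 18.9% of all tested genes did. Slco1b2 takes bile acids, bilirubin and many drugs into hepatocytes. Its normalized log2 intensity was 10.67 on the wild-type and 10.45 on the knockout vehicle array, 7.40, 8.70 and 7.58 on the wild-type CCl4 arrays, and 8.53, 8.22 and 8.87 on the knockout CCl4 arrays. Every CCl4 array was below both vehicle arrays. Slco1b2 fell by 2.34 ± 0.30 (SE) on the log2 scale as the mean of both genotypes (adjusted p = 0.000168), with -2.77 ± 0.43 in wild type (adjusted p = 0.00106) and -1.91 ± 0.43 in the knockout (adjusted p = 0.00854; 0.0688 with no filter on dim probes).

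Slco1a4, a neighbouring carrier of bile acids and cardiac glycosides, read 8.50 and 8.42 on the vehicle arrays, 5.98, 7.93 and 6.26 on the wild-type CCl4 arrays, and 7.03, 6.88 and 6.58 on the knockout CCl4 arrays. All CCl4 arrays were lower than the vehicle arrays, with wild-type replicate 2 the nearest to them. The fall was 1.68 ± 0.40 as the mean of both genotypes (adjusted p = 0.0068). With a vehicle array left out, here and below, only the response of the other genotype remains in place of the mean. Without the wild-type vehicle array that is the knockout response (adjusted p = 0.0582). In wild type the fall was 1.78 ± 0.56 (adjusted p = 0.0407), and the difference was -2.37 without replicate 2. That wild-type call was lost without wild-type CCl4 replicate 1 or 3 or without knockout CCl4 replicate 2 or 3, with adjusted p from 0.0542 to 0.108, with no filter (0.192) and with a trended robust variance model (0.135). With no filter the mean call was lost as well (0.0677). The knockout difference of -1.59 ± 0.56 did not pass (adjusted p = 0.0585).

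Slco2b1, a carrier of steroid sulphates and drugs, read 11.56 and 11.75 on the vehicle arrays, 11.07, 11.46 and 10.42 on the wild-type CCl4 arrays, and 10.63, 10.76 and 10.98 on the knockout CCl4 arrays. The groups did not overlap, with wild-type CCl4 replicate 2 the nearest to the vehicle arrays. Slco2b1 fell by 0.77 ± 0.24 as the mean of both genotypes (adjusted p = 0.0256). With the wild-type vehicle array left out only the knockout response remained (-0.96, adjusted p = 0.0551). Without the knockout vehicle array only the wild-type response remained (-0.57, adjusted p = 0.235). The call was also lost with no filter on dim probes (adjusted p = 0.105) and with the replicate block (0.0548).

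Slco2a1 takes prostaglandins into cells and is known from endothelium. It read 7.69 on the wild-type and 8.94 on the knockout vehicle array, 9.63, 9.13 and 8.91 on the wild-type CCl4 arrays, and 9.20, 9.16 and 9.07 on the knockout CCl4 arrays. The wild-type vehicle array was lower than all others, and 1 wild-type CCl4 array lay below the knockout vehicle array. Slco2a1 rose by 1.54 ± 0.27 in wild type (adjusted p = 0.00232), while the knockout difference was 0.20 ± 0.27 (adjusted p = 0.611). The mean of both genotypes was 0.87 ± 0.19 (adjusted p = 0.00456). With the wild-type vehicle array left out only the knockout response remained (0.20, adjusted p = 0.605). Without the knockout one only the wild-type response remained (1.53). Of 5 tested sinusoidal endothelium markers 1 rose after CCl4 as the mean of both genotypes, and the markers' summed linear level was 4930 and 3700 on the vehicle arrays, 5620 to 6260 on the wild-type CCl4 arrays and 4370 to 4600 on the knockout CCl4 arrays, with Kdr detected on no array. The part of these cells in the Slco2a1 result was not tested.

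The other 7 Slco genes were not tested. Slco1a1, a bile acid and steroid carrier of hepatocytes, had intensities from 50.2 to 78.2 and a lowest detection p of 0.0664, so it was not well above background on any array. In the RefSeq gene order Slco1b2 and Slco1a4 lie in 1 run on chromosome 6 with Slco1c1, Slco1a1, Slco1a6 and Slco1a5. Both detected genes of that run fell.

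In the bile canaliculus group 5 of 8 genes were tested. As the mean of both genotypes 3 fell and 1 rose, where 18.6% and 18.9% of all tested genes did. Abcb11, the bile salt export pump, read 11.64 and 11.67 on the vehicle arrays, 10.54, 11.03 and 10.19 on the wild-type CCl4 arrays, and 10.67, 10.55 and 10.57 on the knockout CCl4 arrays. The CCl4 arrays were all lower, by nearly the same mean amount in both genotypes. Abcb11 fell by 1.07 ± 0.20 as the mean of both genotypes (adjusted p = 0.00197), with -1.06 ± 0.29 in wild type (adjusted p = 0.0214) and -1.08 ± 0.29 in the knockout (adjusted p = 0.0188). In wild type the call was lost without CCl4 replicate 1 (-1.05, adjusted p = 0.0513), and with no filter on dim probes the calls in wild type and in the knockout were both lost (adjusted p = 0.0775 and 0.0712).

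Abcb4, which flips phosphatidylcholine into bile, read 11.68 and 11.15 on the vehicle arrays, 11.24, 10.83 and 11.09 on the wild-type CCl4 arrays, and 10.87, 10.95 and 10.90 on the knockout CCl4 arrays. The highest CCl4 array overlapped the knockout vehicle array. The mean difference of -0.44 ± 0.16 missed the threshold (adjusted p = 0.0504). It passed in 8 of 19 alternative settings, for example without wild-type CCl4 replicate 1 (-0.49, adjusted p = 0.0353).

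Abcc2 exports bilirubin glucuronides and glutathione conjugates, and went the other way. It read 8.74 and 8.96 on the vehicle arrays, 10.40, 10.31 and 9.70 on the wild-type CCl4 arrays, and 9.60, 9.78 and 9.59 on the knockout CCl4 arrays. All CCl4 arrays were above both vehicle arrays. Abcc2 rose by 1.05 ± 0.20 as the mean of both genotypes (adjusted p = 0.00174) and by 1.40 ± 0.28 in wild type (adjusted p = 0.00437). The knockout difference of 0.70 ± 0.28 did not pass (adjusted p = 0.085). With the wild-type vehicle array left out only that knockout response remained (0.70, adjusted p = 0.0814). Without wild-type CCl4 replicate 3 the knockout difference passed (0.70, adjusted p = 0.0294).

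The second tested Abcc2 probe read 6.70 and 7.48 on the vehicle arrays, 7.69, 7.42 and 7.73 on the wild-type CCl4 arrays, and 7.25, 7.31 and 7.27 on the knockout CCl4 arrays. It was higher after CCl4 in wild type, by 0.91 ± 0.22 (adjusted p over probes 0.0121), but its knockout vehicle array was above all knockout CCl4 arrays. Its mean difference of 0.36 ± 0.16 did not pass (adjusted p over probes 0.0937), so the rise in the mean of both genotypes rests on the brighter probe.

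Abcg5 and Abcg8 form a heterodimer that pumps cholesterol and plant sterols into bile. Abcg8 read 10.37 and 9.94 on the vehicle arrays, 8.35, 8.69 and 7.95 on the wild-type CCl4 arrays, and 8.33, 8.03 and 7.52 on the knockout CCl4 arrays. Abcg5 read 11.85 and 11.33 on the vehicle arrays, 10.98, 11.53 and 10.54 on the wild-type CCl4 arrays, and 10.97, 10.41 and 10.36 on the knockout CCl4 arrays. The CCl4 arrays lay far below the vehicle arrays for Abcg8, and overlapped them for Abcg5 through wild-type CCl4 replicate 2. Abcg8 fell by 2.01 ± 0.24 as the mean of both genotypes (adjusted p = 9.68e-05), with -2.04 ± 0.34 in wild type (adjusted p = 0.00157) and -1.98 ± 0.34 in the knockout (adjusted p = 0.00203). Abcg5 fell by 0.79 ± 0.25 as the mean of both genotypes (adjusted p = 0.0282) and passed in neither genotype alone. The Abcg5 call was lost without wild-type CCl4 replicate 1 and without knockout CCl4 replicate 2 or 3. It was also lost without either vehicle array, where only the response of the other genotype remained. In these fits adjusted p ran from 0.0532 to 0.138. The call was lost as well with no filter on dim probes and with the replicate block (0.118 each).

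The log2 difference between the Abcg8 and Abcg5 probes, which has meaning only as it moves between arrays, was -1.48 and -1.39 on the vehicle arrays and -2.38 to -2.84 on the CCl4 arrays. It was lower on 6 of 6 CCl4 arrays than on both vehicle arrays, with a mean shift of -1.22. The pair was singled out after its values were seen, so this is a description with no test.

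**Figure D2:**
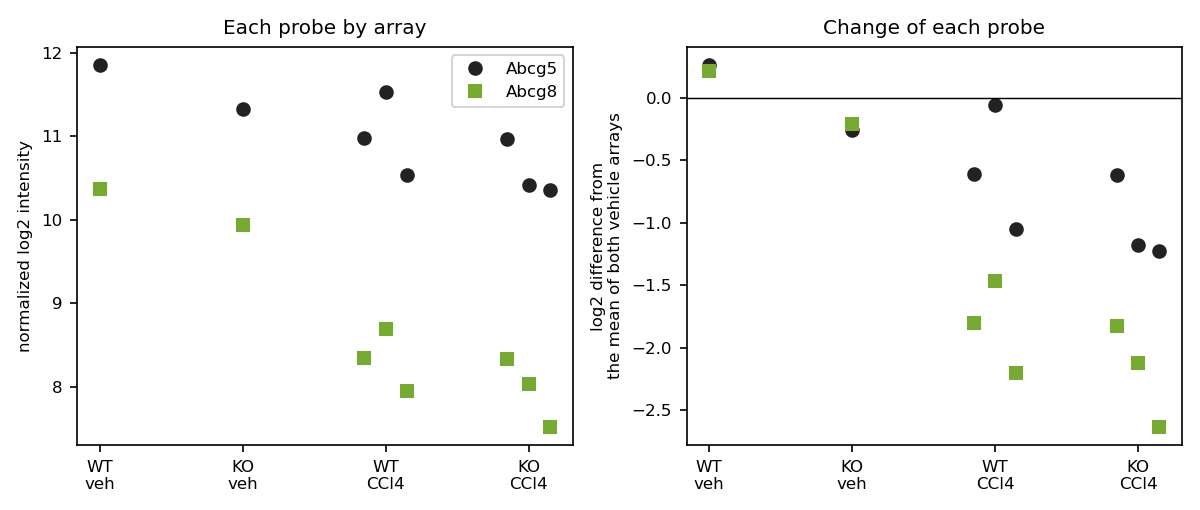
Left, normalized log2 intensity of the Abcg5 and Abcg8 probes on each array, where the heights of the different probes cannot be compared; right, the same values minus each probe's mean over both vehicle arrays. On every CCl4 array the Abcg8 point lies below the Abcg5 point on the right, and the mean shift of their difference is -1.22 on the log2 scale.

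The remaining canalicular members Abcb1a, Abcb1b and Abcg2, which export drugs and toxins, were detected on no array. Their intensities ran from 47.3 to 57.8, from 42.0 to 103 and from 35.6 to 62.9.

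Of 6 ABCC members grouped as other efflux pumps 3 were tested. As the mean of both genotypes 1 fell, where 18.6% of all tested genes did. Abcc6, whose loss causes ectopic calcification, read 8.69 and 8.65 on the vehicle arrays, 7.55, 7.79 and 7.86 on the wild-type CCl4 arrays, and 7.73, 7.69 and 7.92 on the knockout CCl4 arrays. The spread within each CCl4 group was small and no CCl4 array reached a vehicle array. Abcc6 fell by 0.91 ± 0.16 as the mean of both genotypes (adjusted p = 0.0011), with -0.95 ± 0.22 in wild type (adjusted p = 0.0104) and -0.87 ± 0.22 in the knockout (adjusted p = 0.0158).

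Abcc3 exports conjugates and bile acids to the blood side. It read 10.18 and 10.0016 on the vehicle arrays, 10.45, 9.80 and 10.13 on the wild-type CCl4 arrays, and 9.39, 9.70 and 9.46 on the knockout CCl4 arrays. The wild-type CCl4 arrays lay around their vehicle array and the knockout ones below theirs. Neither response passed, at -0.05 ± 0.27 in wild type (adjusted p = 0.91) and -0.48 ± 0.27 in the knockout (adjusted p = 0.201).

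Abcc10, an efflux pump of drug and glucuronide substrates, read 6.68 and 5.73 on the vehicle arrays, 5.36, 5.07 and 5.79 on the wild-type CCl4 arrays, and 6.12, 5.92 and 5.86 on the knockout CCl4 arrays. It was not well above background on the knockout vehicle array or on any wild-type CCl4 array, was detected on 1 of 3 knockout CCl4 arrays, and entered the test through the wild-type vehicle array, so its fall is a description. In wild type Abcc10 was at least 1.77-fold lower after CCl4 (adjusted p = 0.00676). For this bound each dim array was given the dimmest signal detected on it, or the probe's own signal where that was higher. Abcc1 and Abcc5 were not tested, and Abcc1 had intensities from 37.5 to 53.0.

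Of 16 ABCA members, lipid transporters, 7 were tested. As the mean of both genotypes 3 fell and 1 rose, where 18.6% and 18.9% of all tested genes did. Abca8a read 10.44 and 10.38 on the vehicle arrays, 9.34, 10.19 and 9.03 on the wild-type CCl4 arrays, and 8.75, 9.01 and 8.93 on the knockout CCl4 arrays. It fell by 1.20 ± 0.25 as the mean of both genotypes (adjusted p = 0.00371) with -1.49 ± 0.36 in the knockout (adjusted p = 0.0122, or 0.0731 with no filter). Without the knockout vehicle array only the wild-type response remained (-0.92, adjusted p = 0.0839). Wild-type CCl4 replicate 2 was again the one nearest to the vehicle arrays, and the wild-type difference of -0.92 ± 0.36 did not pass (adjusted p = 0.0857).

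Abca9 read 6.24 and 6.15 on the vehicle arrays, 5.45, 5.73 and 5.35 on the wild-type CCl4 arrays, and 5.20, 5.33 and 5.16 on the knockout CCl4 arrays. It was not well above background on any CCl4 array and entered the test through the vehicle arrays, so its fall too is a description. It was at least 1.22-fold lower after CCl4 as the mean of both genotypes (adjusted p = 0.00223), at least 1.3-fold in wild type (adjusted p = 0.0375) and at least 1.14-fold in the knockout (adjusted p = 0.0135). The wild-type call was lost on leaving out any CCl4 array but wild-type replicate 2, with adjusted p from 0.0551 to 0.0785, and in 6 of 10 other settings (0.0634 to 0.116). The second tested Abca9 probe was lower as the mean of both genotypes (-0.89 ± 0.22, adjusted p over probes 0.00901). It passed neither in wild type (-0.85 ± 0.31, 0.0693) nor in the knockout (-0.92 ± 0.31, 0.0502). This probe entered the test through the wild-type vehicle array, so its values too are a description. In the RefSeq gene order Abca8b, Abca8a, Abca9, Abca6 and Abca5 lie in a row on chromosome 11. The values differed within this row, since Abca8b (0.20 ± 0.20, adjusted p = 0.452) and Abca6 (0.19 ± 0.18, adjusted p = 0.423) did not pass, and Abca5 was not tested.

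Abca2, a lipid transporter of lysosomes, read 6.49 and 7.10 on the vehicle arrays, 5.77, 5.68 and 6.03 on the wild-type CCl4 arrays, and 5.97, 5.86 and 6.06 on the knockout CCl4 arrays. All CCl4 arrays were below both vehicle arrays. The probe was detected on both vehicle arrays but on 1 of 3 wild-type and 2 of 3 knockout CCl4 arrays, so it entered the test through the side where it is high and its fall is a description. Abca2 fell by 0.90 ± 0.16 as the mean of both genotypes (adjusted p = 0.0012) with -1.14 ± 0.22 in the knockout (adjusted p = 0.00439). Abca3, known for packing surfactant lipid in lung, read 10.82 and 11.28 on the vehicle arrays, 10.87, 10.91 and 10.41 on the wild-type CCl4 arrays, and 10.54, 10.50 and 10.62 on the knockout CCl4 arrays. The knockout CCl4 arrays were below the knockout vehicle array, while those of wild type lay on both sides of theirs. Abca3 fell by 0.73 ± 0.24 in the knockout (adjusted p = 0.0478). That call was lost without wild-type CCl4 replicate 1 or any knockout CCl4 array, with adjusted p from 0.0533 to 0.102, and in 4 of 11 other settings (0.0506 to 0.147). Its second probe was also lower in the mean of both genotypes (-0.68 ± 0.18, adjusted p over probes 0.0121), where the main probe did not pass (-0.41 ± 0.17).

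Abca7, which moves phospholipids in macrophages and other cells, read 5.97 and 5.80 on the vehicle arrays, 6.19, 6.10 and 6.24 on the wild-type CCl4 arrays, and 6.57, 6.36 and 6.33 on the knockout CCl4 arrays. On both vehicle arrays it was not well above background, and it entered the test through the CCl4 arrays, so its rise is a description. Abca7 was at least 1.15-fold higher after CCl4 as the mean of both genotypes (adjusted p = 0.0493). The call was lost in 6 of 8 fits that left out 1 array, namely without the knockout vehicle array, wild-type CCl4 replicate 1 or 3 or any knockout CCl4 array, with adjusted p from 0.0632 to 0.496, and in 7 of 11 other settings (0.0504 to 0.117). The fit without the knockout vehicle array held only the wild-type response. Abca1, which loads cholesterol on high-density lipoprotein, was detected on no array, with intensities from 56.2 to 88.2.

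Of 7 organelle members 5 were tested. As the mean of both genotypes 2 fell and 0 rose, where 18.6% and 18.9% of all tested genes did. Abcb10 sits in the inner mitochondrial membrane and serves heme synthesis. It read 7.03 and 7.32 on the vehicle arrays, 6.19, 6.52 and 6.21 on the wild-type CCl4 arrays, and 6.80, 6.39 and 6.34 on the knockout CCl4 arrays. No CCl4 array reached a vehicle array. Abcb10 fell by 0.77 ± 0.18 as the mean of both genotypes (adjusted p = 0.00603) with -0.81 ± 0.25 in the knockout (adjusted p = 0.0353). Without the knockout vehicle array only the wild-type response remained (adjusted p = 0.0538). The knockout call was lost without knockout CCl4 replicate 2 or 3 (adjusted p = 0.086 and 0.0879), with no filter (0.0773) and with the replicate block (0.122), which also ended the mean call (0.0518).

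Abcd2, a peroxisomal carrier of very-long-chain fatty acids, read 7.62 and 7.11 on the vehicle arrays, 7.33, 6.69 and 6.92 on the wild-type CCl4 arrays, and 6.72, 6.80 and 6.502 on the knockout CCl4 arrays. The vehicle arrays differed, and 1 wild-type CCl4 array lay above the knockout vehicle array. Abcd2 fell by 0.54 ± 0.19 as the mean of both genotypes (adjusted p = 0.0425). The call was lost on leaving out any array but wild-type CCl4 replicate 1 (adjusted p from 0.0507 to 0.245), and it was also lost in 4 of 11 other settings (0.0543 to 0.32). Without a vehicle array only the response of the other genotype remained. The second tested Abcd2 probe did not pass for the mean of both genotypes (-0.49 ± 0.24, adjusted p over probes 0.134). The mean differences of Abcb6, Abcb8 and Abcd3, from -0.52 to 0.30, did not pass, with Abcb6 at an adjusted p of 0.0501. The other tested Abcb8 probes differed in sign (0.20 ± 0.27 and -0.31 ± 0.19) and did not pass.

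Of 4 ABCE and ABCF members 4 were tested and 0 were called by their main probe in any comparison, against 37.5% of all genes for the mean of both genotypes. Their mean differences ran from -0.10 to 0.28 on the log2 scale, from the ribosome-associated gene Abcf3 to Abcf1. The probes of Abcf1 and Abcf2 did not all go alike. A second Abcf1 probe was 0.51 ± 0.18 higher after CCl4 (adjusted p over probes 0.0391), where the main one did not pass (0.28 ± 0.16). In wild type that second probe was 0.99 ± 0.25 higher after CCl4 (adjusted p over probes 0.0139). Of 4 tested Abcf2 probes 1 was lower in the knockout than in wild type after CCl4 (-0.65 ± 0.16, adjusted p over probes 0.0391), while the others ranged from -0.51 to 0.28. Within the knockout the same probe was lower after CCl4 than after vehicle (-0.91 ± 0.23, adjusted p over probes 0.0137). There the others ranged from -0.63 to 0.11 and did not pass.

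Within wild type 2 members rose (12.4% of all tested genes did) and 7 fell (11.6% of all tested genes did), so that 9 of 29 were called, against 24% of all genes. The medians were -0.56 over the members and -0.02 over all genes. In the knockout 0 members rose and 9 fell, where 13% and 12.8% of all tested genes did. The 9 called compare with 25.8% of all genes. Among those that fell, Abca9 in both genotypes, Abcc10 in wild type and Abca2 in the knockout passed the detection filter through vehicle arrays alone. The filter itself favoured their direction. At an unadjusted p under 0.05 limma gave 2 higher and 11 lower members in the knockout, with 39.2% of all genes past it, and 3 higher and 13 lower in wild type, with 37.6% of all genes. The knockout medians were -0.48 over the members and -0.01 over all genes. The responses of the 2 genotypes have no array in common, and both have a single vehicle array. Their tests share 1 variance estimate from all CCl4 arrays and 1 normalization, so the 2 sets of calls are not independent.

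**Figure D3:**
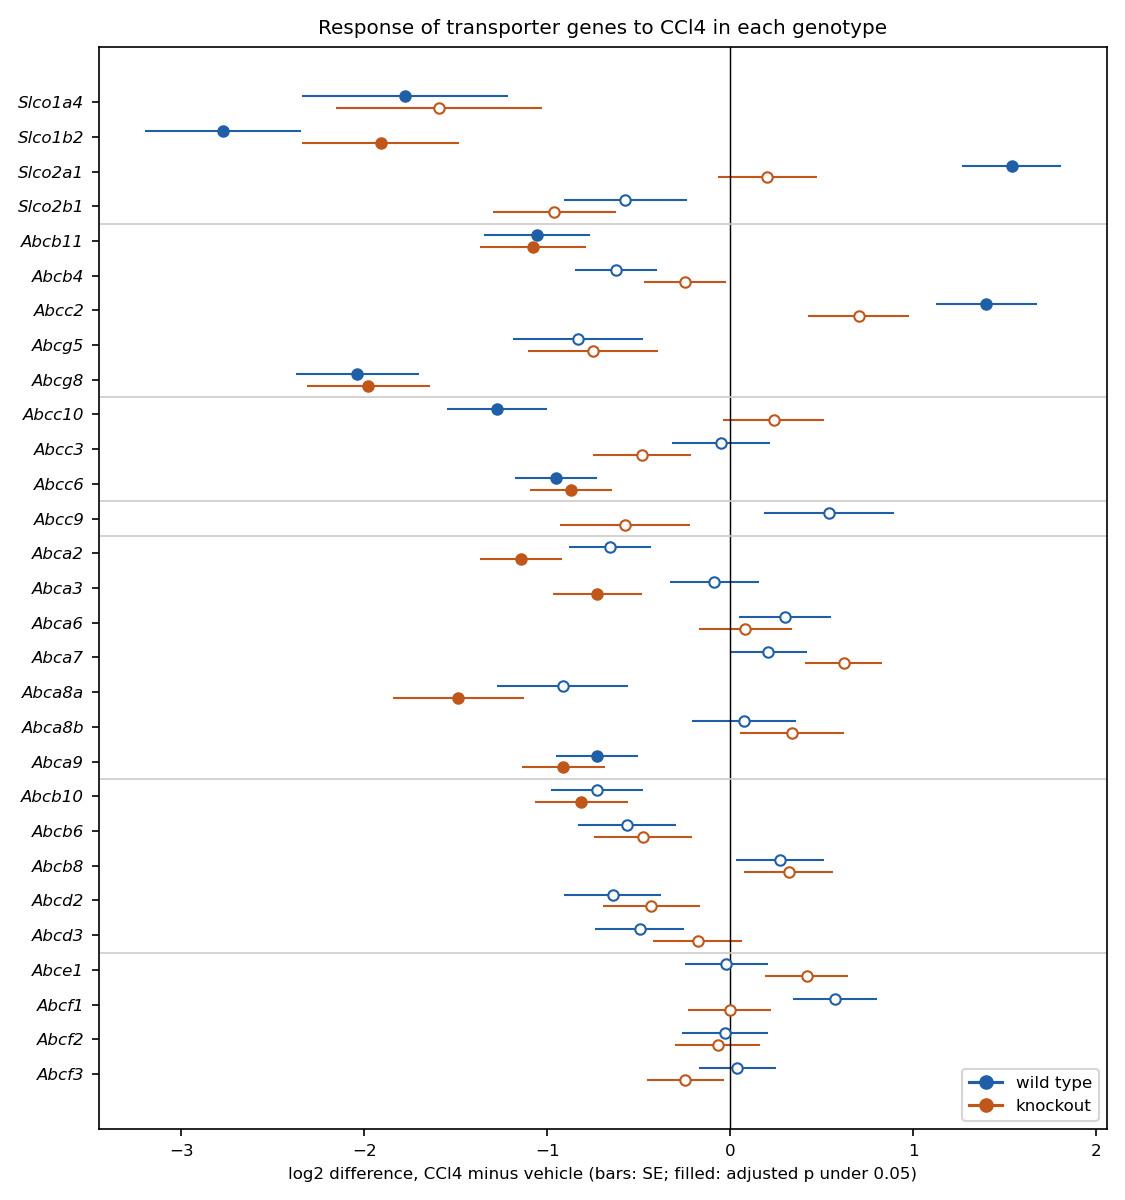
Log2 difference between CCl4 and vehicle (horizontal axis) of the 29 tested members in wild type and in the knockout, with bars of 1 SE and filled points for an adjusted p under 0.05; grey lines part the groups by role. Slco1b2, Abcb11, Abcg8, Abcc6 and Abca9 are filled on the negative side in both genotypes, and Slco2a1 and Abcc2 are filled on the positive side in wild type.

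Wild-type CCl4 replicate 2 was the highest of the 3 wild-type CCl4 arrays for 9 of the 12 members that fell (75%), and for 796 of all 1352 genes that fell (58.9%). Without it 12 members still fell and 3 rose as the mean of both genotypes, with 3015 of all genes called in place of 2722. In wild type 3 rose and 10 fell without it, with 2027 of all genes called in place of 1742. Neutrophil markers moved with CCl4, since 2 of 2 tested rose, and their summed linear level went from 458 and 612 on the vehicle arrays to between 1800 and 7490 on the CCl4 arrays. Elane and Ngp were detected on no array. The hepatocyte markers' summed level was 44600 and 58200 on the vehicle arrays and 48100 to 54900 on all CCl4 arrays. Of 6 tested stellate cell markers 3 rose and 1 fell as the mean of both genotypes, and 4 rose and 1 fell in wild type. Of 4 tested macrophage and Kupffer markers 0 were called in the mean and 1 rose in wild type, and 1 of 2 tested erythroid markers fell in both of these comparisons. No cholangiocyte or lymphoid marker was tested. The part of these cells in the transporter values was not tested.

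Between the genotypes after CCl4, with 3 arrays each, Abcc9 was the 1 member called. It was lower in the knockout, where 3.6% of all tested genes were lower, and 0 members were higher, where 2.89% were. The 1 of 29 compares with 6.49% of all genes. Abcc9 encodes the sulphonylurea receptor subunit of ATP-sensitive potassium channels, an ABC protein known from muscle and vessel walls that is itself no pump. It read 6.68 and 6.83 on the vehicle arrays, 7.42, 6.88 and 7.37 on the wild-type CCl4 arrays, and 5.66, 6.67 and 6.43 on the knockout CCl4 arrays. All knockout CCl4 arrays were below all wild-type CCl4 arrays, with knockout replicate 1 the lowest. The probe was detected on 3 of 3 wild-type but 2 of 3 knockout CCl4 arrays. Knockout replicate 1 had the lowest intensity of all arrays, 80.5, so its reading is near background. The difference was -0.97 ± 0.25 (adjusted p = 0.0457). The call was lost without wild-type CCl4 replicate 1 or 3 and without any of the knockout CCl4 arrays, with differences from -0.68 to -1.18 and adjusted p from 0.0517 to 0.154, and with no filter (0.173).

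A second Abcc9 probe, annotated to another transcript record, read 5.74 and 5.78 on the vehicle arrays, 7.06, 6.63 and 7.19 on the wild-type CCl4 arrays, and 6.27, 6.03 and 6.29 on the knockout CCl4 arrays. It was detected on 0 vehicle arrays, 3 wild-type and 2 knockout CCl4 arrays and entered the test through wild-type CCl4, where it is high, so its differences are a description and no support for the main probe. It was also lower in the knockout after CCl4, by 0.76 ± 0.18 (adjusted p over probes 0.0356). Unlike the main probe, it was higher after CCl4 than after vehicle, at least 1.39-fold as the mean of both genotypes (adjusted p over probes 0.00475). The main probe's mean difference was -0.02 ± 0.25. Beside Abcc9 stand the markers of cells of the vessel wall. Of 6 tested stellate cell markers 1 was lower in the knockout after CCl4 and 0 were higher, and their summed linear level was 9580 to 12000 on the wild-type and 7520 to 8130 on the knockout CCl4 arrays (6870 and 7340 on the vehicle arrays), and Col1a2 was detected on no array. Of 5 tested endothelial markers 2 were lower and 0 higher in this comparison, and their summed level was also lower on the knockout than on the wild-type vehicle array (3700 against 4930). Their part in the Abcc9 result was not tested.

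**Figure D4:**
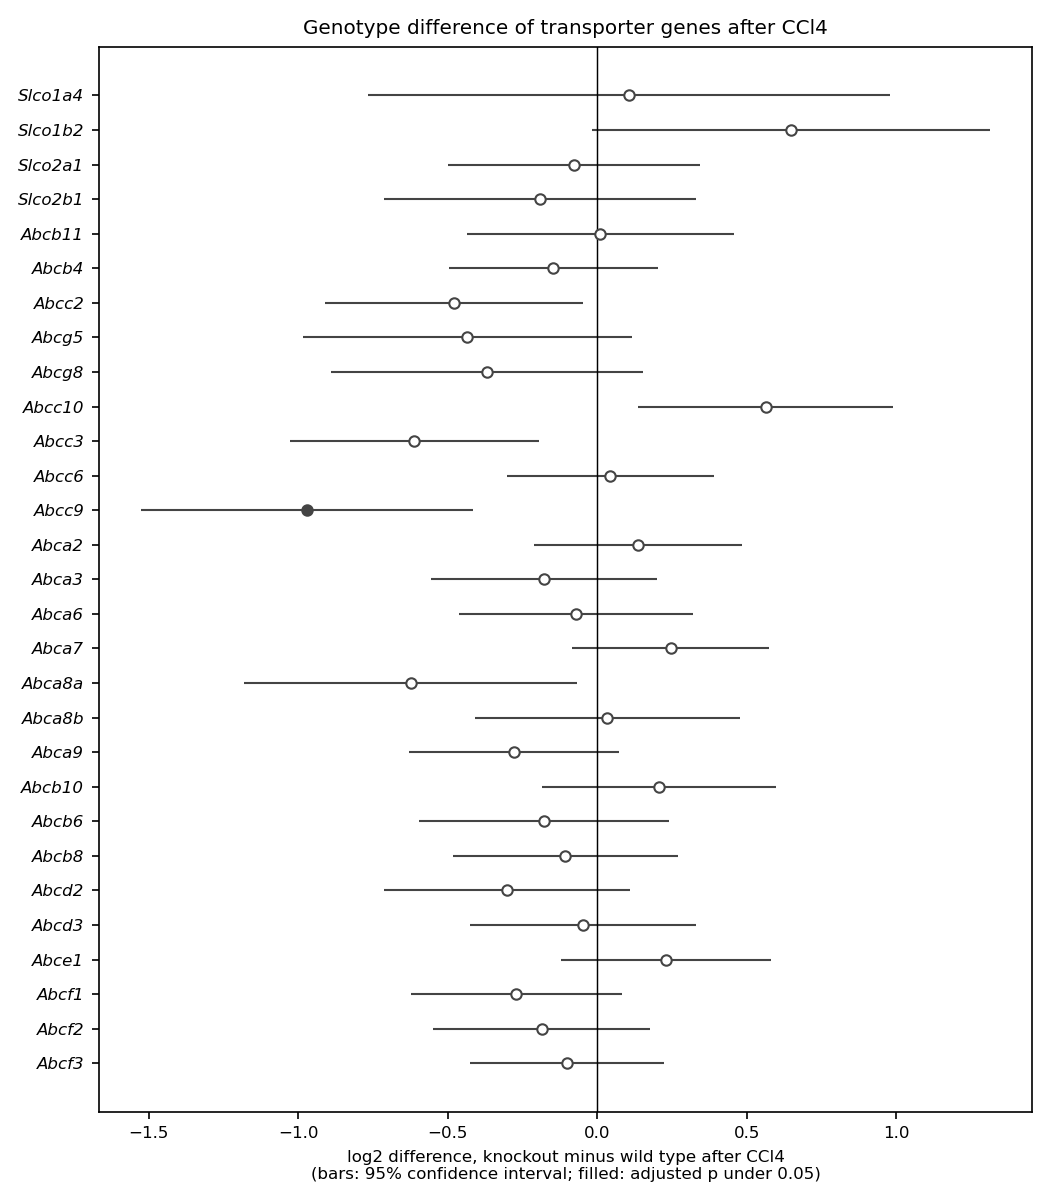
Log2 difference between knockout and wild type after CCl4 (horizontal axis) of the 29 tested members, with 95% confidence intervals and a filled point for an adjusted p under 0.05. Abcc9 at -0.97 is the only filled point, and Abcb11 lies at 0.01.

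The median genotype difference after CCl4 was -0.11 over the 29 members and -0.01 over all genes. Abcc3 had the second lowest p of the members. Its 3 knockout CCl4 arrays were all below its 3 wild-type ones, at -0.61 ± 0.19, but it did not pass (adjusted p = 0.0782). It passed in 4 of 19 alternative settings, among them the fit without wild-type CCl4 replicate 2 (-0.78, adjusted p = 0.0412). Median scaling was another (-0.75, adjusted p = 0.0297), and moved the median of all genes by -0.17 in this comparison. Slco1b2 was 0.65 ± 0.30 higher in the knockout and did not pass (adjusted p = 0.212). Without wild-type CCl4 replicate 2 it was 1.05 and passed (adjusted p = 0.0188).

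For the other main bile transporters the 95% confidence interval of the genotype difference ran from -0.44 to 0.46 for Abcb11. It ran from -0.99 to 0.11 for Abcg5, from -0.89 to 0.15 for Abcg8 and from -0.77 to 0.98 for Slco1a4. For Abcc2 it ran from -0.91 to -0.05 (adjusted p = 0.158). The Abcc2 difference passed in 1 of 19 alternative settings (adjusted p = 0.0268).

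No member passed the test of whether the response to CCl4 differed between genotypes, in which 0.358% of all genes were called (limma interaction term). At an unadjusted p under 0.05 there were 1 higher and 2 lower members, and 19.9% of all genes. These 3 were Abcc10 (1.51 ± 0.39, adjusted p = 0.0898), Slco2a1 (-1.34 ± 0.38, adjusted p = 0.118) and Abcc9 (-1.12 ± 0.51, adjusted p = 0.248). Abcc10 passed without wild-type CCl4 replicate 3 (1.69, adjusted p = 0.0439). It entered the test through the wild-type vehicle array alone, where it is high, so its interaction value is a description. For Abcc10 and Slco2a1 the vehicle arrays differed most among the members, so each value rests on single vehicle arrays.

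The knockout and wild-type vehicle arrays were set side by side without a test. The median size of their difference was 0.22 over the 29 members and 0.27 over all genes on the log2 scale. The largest was that of Slco2a1, 1.26 higher in the knockout, and 4.04% of all genes differed by at least 1. Abcc10, 0.95 lower in the knockout, was the other member beyond the 95th percentile of all genes. It passed the detection filter through the wild-type vehicle array alone.

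Other genes of hepatobiliary transport and its regulation were read from a list of 53, of which 43 were on the array and 32 tested. As the mean of both genotypes 10 fell (18.6% of all tested genes did) and 3 rose (18.9% of all did) after CCl4, with a median of -0.33 against -0.02 over all genes. The bile acid carrier Slc10a1, which works beside Slco1b2 on the blood side, fell by 1.08 ± 0.19 (adjusted p = 0.00118), from 7.02 and 6.80 on the vehicle arrays to between 5.55 and 6.15. The nucleoside carrier Slc29a1 fell by 1.36 ± 0.15 (adjusted p = 4.81e-05), and the liver transcription factor Cebpa fell by 1.75 ± 0.19 (adjusted p = 5.2e-05). The nuclear receptor Nr1i3 fell by 1.22 ± 0.17 (adjusted p = 0.000312). The 3 that rose, named after their values were seen, were Slc51b, Nfe2l2 and Ezr. Slc51b, a subunit of the bile acid exporter to blood, rose by 0.75 ± 0.18. Nfe2l2, which encodes the factor NRF2, rose by 0.82 ± 0.20. Ezr, a linker of membrane and cytoskeleton, was dim after vehicle and rose at least 1.27-fold. Ezr thus entered the test through CCl4 arrays, where it is high, so its rise is a description.

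In wild type 0 of these listed genes rose and 7 fell, where 12.4% and 11.6% of all genes did. In the knockout 3 rose and 10 fell, where 13% and 12.8% did. After CCl4, Slc51b was 0.71 ± 0.18 higher in the knockout than in wild type (adjusted p = 0.0452), with 8.46, 7.96 and 7.83 against 7.40, 7.43 and 7.28. Tapbp, a chaperone of peptide loading by the ABC pair Tap1 and Tap2, was at least 1.17-fold lower there (adjusted p = 0.0343). It was not well above background on the knockout CCl4 arrays and entered the test through another group, so its difference is a description. No listed gene passed for the interaction (0 of 32).

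Of the 28 members that were not tested, 25 had no probe detected on any array. The 28 were 9 ABCA, 7 Slco, 3 canalicular, 3 other ABCC, 3 other ABCG and 2 organelle genes and the channel subunit Abcc8. The 49 untested probes that were detected on no array had intensities of at most 103. For the 25 genes with no detected probe a change after CCl4 or between genotypes was not detectable on these arrays. The other 3 had a probe detected on at least 1 array but did not pass the filter. Among the 29 tested genes 24 had their main probe detected on all 8 arrays.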

How the data were processed

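Whole-liver RNA was measured on 8 Illumina bead arrays. The authors deposited, per the file headers, a non-normalized intensity and a detection p-value per probe and array. The scanner software, any background step and the genome build of the probe design are not given in the sources used here, and the labels give no slide. Of 25697 probes 23978 have 1 gene symbol in the platform annotation, 0 have several and 1719 have none, and RefSeq's GRCm38.p6 tables served for symbols, neighbour order and promoter windows only.

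Background correction and quantile normalization of the intensities used the neqc function (limma 3.58.1, R 4.3.3, offset 16), with negative control levels inferred from the detection p-values, and put on the log2 scale. A probe was kept where 1 or more groups had a detection p below 0.01 on all their arrays, and its brightest kept probe represented each gene. One limma fit of the 4 group means over all 8 arrays gave moderated 2-sided tests, with 4 residual degrees of freedom, all from the CCl4 arrays, and Benjamini-Hochberg adjustment over 7257 genes at 0.05. Adjusted p over probes came from the same fit on all 10128 tested probes. The number of arrays limits the precision: the median SE of a member was 0.19 for the mean response and the genotype difference, 0.27 within a genotype and 0.37 for the interaction. The code was checked on simulated data.

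Members, lists and tests were chosen with earlier results of these data known. Values were given for each member called in at least 1 comparison and for listed liver transporters, of which Abcc4 is not analysed here. Other tested probes were set beside them where calls or signs differed, though not for every comparison. Of the list of hepatobiliary transport genes at most 4 per comparison were named, in order of p. The 3 that rose as the mean of both genotypes were named besides, after their values were seen. Cell marker lists were counted per comparison. Alternatives covered the normalization, background, offset, filter, probe choice, variance model, array weights, the deposited value table, a replicate block and each array left out. With a vehicle array left out no mean of both genotypes could be formed. The response of the other genotype then stood in its place. Replicate numbers did not pair the arrays: deviations of same-numbered wild-type and knockout CCl4 arrays correlated at -0.12, -0.11 and -0.01.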

Additional observations from a re-analysis of the deposited data

Results flagged for a closer look

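Some member probes that were left out of the tests were detected on CCl4 arrays and on 0 vehicle arrays. The values are deposited intensities, and no test was made. The second Abca8b probe was detected on 4 of 6 CCl4 arrays, with 81.9 and 71.3 on the wild-type and knockout vehicle arrays, 141, 93.3 and 110 on the wild-type CCl4 arrays, and 76.9, 99.4 and 93.2 on the knockout CCl4 arrays. An Abcc5 probe, for an exporter of cyclic nucleotides, was detected on 3 CCl4 arrays, with 94.99 and 68.7 after vehicle, 114, 97.3 and 138 on the wild-type and 94.0, 89.8 and 111 on the knockout CCl4 arrays. These ranges overlap between vehicle and CCl4.

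The probe of Abcg1, which exports cholesterol from macrophages and other cells, was detected on 2 CCl4 arrays. It read 53.2 and 79.9 after vehicle, 102, 99.95 and 126 in wild type after CCl4, and 57.2, 70.9 and 68.0 in the knockout after CCl4. The 3 wild-type CCl4 arrays were above all others. An Abca5 probe and a second Abca7 probe were each detected on 1 CCl4 array.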

How the results depend on the processing

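The count of called members stayed within 1.5 times under every alternative run for the mean response (15, with 10 to 18) and the wild-type response (9, with 7 to 13). Over all genes these counts were 2722, with 1770 to 3015, and 1742, with 1349 to 2027. For the mean, the fits without the wild-type or knockout vehicle array hold the response of the other genotype alone. They called 10 members each, and 1899 and 1770 of all genes. Without a filter on dim probes the knockout count of members was 5 in place of 9, with more genes tested. Over all genes that count was 1431 in place of 1869. The genotype count of members was 0 in place of 1 without the filter. The genotype count was 2 with median scaling, without background correction and with a trended robust variance model. On leaving out 1 array it ran from 0 to 3, and the interaction count from 0 to 1. Over all genes, the genotype count was 471, and 107 without the filter, 878 with median scaling and 121 to 811 on leaving out 1 array. For the interaction it was 26, and 1 to 129 over all alternatives. With the replicate block the member counts were 10 for the mean of both genotypes, 9 in wild type and 8 in the knockout. They were 1 between genotypes and 0 for the interaction. The counts over all genes were then 1917, 1386, 1346, 428 and 35, in the same order. For single genes, 1668 values kept their side of the threshold, 82 lost and 57 gained a call, and 0 called values changed sign. Direction was not compared for values called in neither the main nor the alternative fit, and some of these changed sign. The calls of Slco1b2, Abcg8, Abcc6 and Abcb11 as the mean of both genotypes were kept in all alternatives. The slide could not be fitted, since the headers give none. Median scaling moved the median of all genes by -0.17 between genotypes. The cause of these changes was not tested. Each vehicle group is 1 array, and 28 members were too dim to test.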
